A study of Mus musculus with 2 samples.

Results

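Extracellular matrix genes were examined in adrenal glands of B6CASTF1/J females (25 days old, F1 offspring of C57BL/6J and CAST/EiJ mice). They were chosen by name: all annotated genes of collagen chains and laminin chains, together with Sparc, Sparcl1, Fn1, Mgp, Dcn, Lum, Bgn, Nid1, Nid2, Hspg2, Mmp14, Timp2 and Timp3. Of 16400 annotated mouse genes with reads, 53 met this rule. There was 1 group of 2 libraries of total RNA, called replicates 1 and 2, each sequenced as long reads with added spike-in controls and with no treatment. The labels give the same donor to both and disagree on whether the animals were separate, so the spread between these libraries may be technical. A test between them compares 2 libraries, not conditions.

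The matrix around cells comes in kinds that these genes build. Basement membranes are thin sheets under epithelium and around vessels, made of a network of type IV collagen and a network of laminins that are tied together by nidogens and the proteoglycan perlecan. Fibrillar collagens (types I, III and V among them) instead form the cables of connective tissue. Sparc is a secreted collagen-binding glycoprotein that acts on how collagen is deposited. The adrenal gland is enclosed by a fibrous capsule and has a dense capillary bed, and laminins and type IV collagen lie between its cords of steroid-producing cells and its sinusoids. Collagen and laminin transcripts are mostly long and split into many exons, which in many collagens are short. This makes them a hard case for reading RNA from end to end.

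Replicate 1 held 426150 reads and replicate 2 held 770041, of which 397176 and 712032 fell on annotated mouse genes. Levels are given as CPM, a gene's reads scaled to the latter totals, so that a read is worth 2.52 and 1.40 CPM. Where a gene has 0 reads, up to 3 are allowed, which is 7.55 and 4.21 CPM. Genes that define the gland were high in both libraries: 5 steroidogenic markers summed to 66920 and 61002 CPM and 5 chromaffin markers to 10892 and 11936 CPM. Endothelial markers (9 of 9 with reads) summed to 675 and 709 CPM. Mesenchyme and capsule markers (8 of 9) summed to 85.6 and 95.5 CPM, with Gli1 listed in neither library, and mural markers (5 of 6) to 75.5 and 85.7 CPM, without Myh11. Adipocyte markers (5 of 5) summed to 1823 and 1358 CPM and Schwann cell markers (3 of 5) to 7.55 and 15.4 CPM. Liver markers (6 of 6) summed to 267 CPM in replicate 1 and 1.40 CPM in replicate 2.

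The matrix genes took 2019 reads in replicate 1 and 3574 in replicate 2. That was 0.508% of the reads on annotated genes (95% Wilson interval 0.487 to 0.531) and 0.502% (0.486 to 0.519), a mean of 0.505% ± 0.00452 (SD, n = 2). Wilson intervals and limits cover counting error only, and reads without molecular identifiers are not independent molecules. Reads of 43 of the genes were found in replicate 1 and of 47 in replicate 2, with 37 in both, 6 in replicate 1 alone and 10 in replicate 2 alone. Over all 16400 annotated genes with reads, 12578 had reads in both libraries. At least 5 reads in each library were held by 20 of the matrix genes and by 8110 of all annotated genes. The tables used here list no model of several further collagen genes that meet the rule in the GENCODE M21 annotation, among them Col2a1, Col6a3 to Col6a6, Col10a1, Col11a1, Col12a1 and Col24a1.

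Sparc alone supplied most of these reads. It had 1341 reads in replicate 1 (3376 CPM) and 2247 in replicate 2 (3156 CPM), a mean of 3266 ± 156 CPM (SD, n = 2), and held rank 15 among all annotated genes by mean CPM. The other 52 genes together had 678 and 1327 reads, 0.171% (0.158 to 0.184) and 0.186% (0.177 to 0.197) of the reads on annotated genes. For each read of Col4a1, a chain of the type IV collagen that Sparc is known to bind, there were 16.8 reads of Sparc in replicate 1 (95% counting interval 13.4 to 20.99) and 17.8 in replicate 2 (14.9 to 21.3).

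Sparc (ENSMUSG00000018593.13) lies on the minus strand of chromosome 11 from 55394500 to 55423183 in mm10. Its exons 2 and 3 are joined in 2 ways that differ by 3 bases, because there are 2 acceptor sites for exon 3. The sequence across this junction, in the coding part of the transcript, is shown with the bases that only the upstream acceptor adds in capitals (15 bases on each side, chr11:55407262-55409942 with the intron taken out, minus strand, from the GENCODE M21 transcript).
Sparc exons 2 and 3: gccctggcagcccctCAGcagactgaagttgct
In replicate 1, 849 reads used the upstream acceptor and 220 the downstream one, and in replicate 2 the reads were 1410 and 340. The share of the upstream acceptor was therefore 79.4% (76.9 to 81.7) in replicate 1 and 80.6% (78.7 to 82.4) in replicate 2, a mean of 80.0% ± 0.81 (SD, n = 2). Each interval held the other library's value. Among the annotated transcripts of Sparc, Sparc-201 led with 831 and 1369 reads, ahead of Sparc-202 with 214 and 327. A pair annotated as retained-intron transcripts, Sparc-205 (39 and 46 reads) and Sparc-203 (22 and 23 reads), were also read in both libraries. A further 229 unspliced reads overlapped the last exon.

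**Figure D1:**
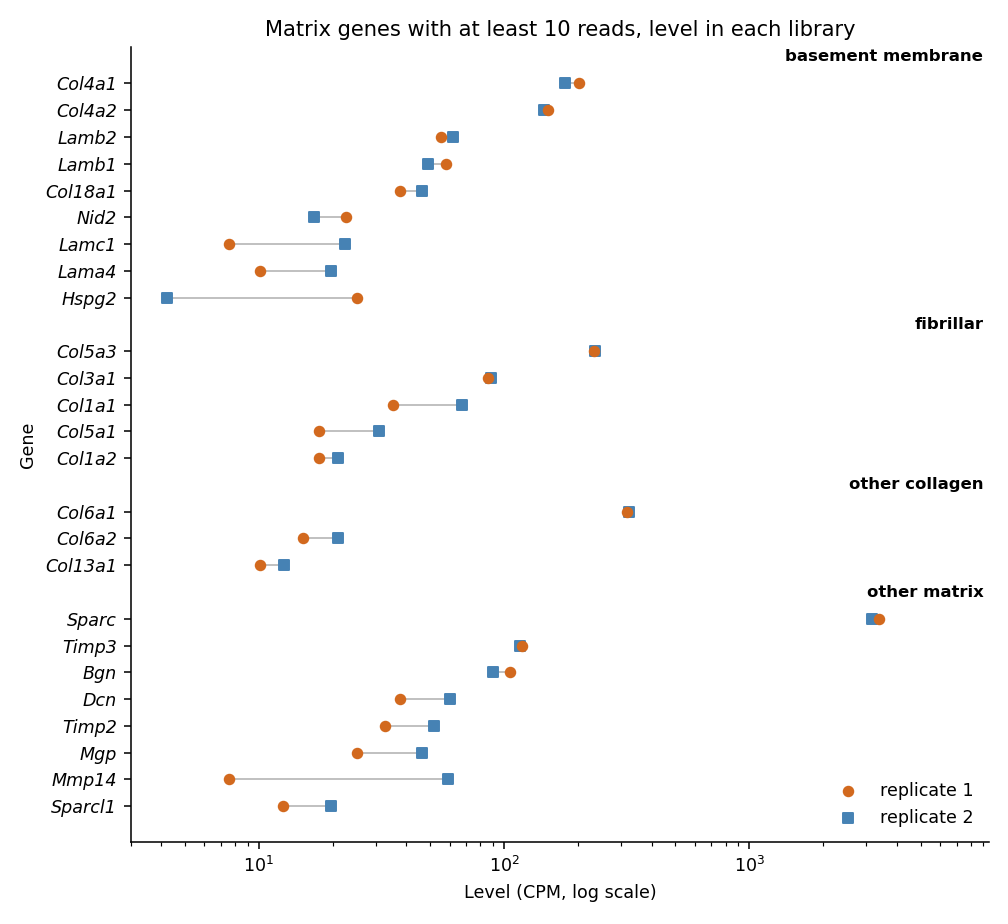
Level of the 25 matrix genes with at least 10 reads, in CPM on a log axis, with replicate 1 as circles and replicate 2 as squares, in 4 groups by role. Sparc stands apart at 3376 and 3156 CPM, and Mmp14 and Hspg2 show the widest gaps between the libraries.

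Of the basement membrane genes, 20 had reads, 236 in replicate 1 and 413 in replicate 2. Type IV collagen led them. Col4a1 had 80 reads (201.4 CPM) in replicate 1 and 126 (177 CPM) in replicate 2, and Col4a2, which encodes its partner in the collagen molecule, had 60 (151 CPM) and 104 (146 CPM). The ratio of Col4a1 to Col4a2 reads was 1.33 (0.956 to 1.86) and 1.21 (0.935 to 1.57), and neither interval excluded equal numbers. The other 4 chains, Col4a3 to Col4a6, which form the type IV collagen of specialised basement membranes such as that of the kidney glomerulus, had 0 to 3 reads per library. Type IV collagen therefore had 142 and 235 reads in all, and nearly all of them came from the Col4a1 and Col4a2 pair.

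Col4a1 and Col4a2 lie head to head. In mm10, Col4a1 runs on the minus strand of chromosome 8 from 11198423 to 11312826 and Col4a2 on the plus strand from 11312805 to 11449287. Their annotated starts overlap by 22 bases, shown in capitals with 4 bases on each side (chr8:11312801-11312830, plus strand, RefSeq, GRCm38.p6).
Col4a1 and Col4a2 start sites: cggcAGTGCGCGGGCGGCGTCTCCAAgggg
The pair therefore shares a start region, and their mean levels were 189 ± 17.3 and 149 ± 3.54 CPM (SD, n = 2).

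The laminins, trimers of an alpha, a beta and a gamma chain, had 57 and 126 reads from 9 genes. The beta chains were the most read. Lamb2 had 22 reads (55.4 CPM) in replicate 1 and 44 (61.8 CPM) in replicate 2, and Lamb1 had 23 (57.9 CPM) and 35 (49.2 CPM). Lamb1 reads stood at 1.05 (0.587 to 1.86) and 0.795 (0.512 to 1.24) per Lamb2 read. The main gamma chain gene Lamc1 had 3 and 16 reads, and Lamc3 had 0 and 8. Of the alpha chains, Lama4, a laminin of vessel walls, had 4 and 14 reads and Lama5 had 4 and 4, whereas Lama1, Lama2 and Lama3 had 0 to 2 reads per library. Transcripts of the alpha chains and of Lamc1 are longer than those of the beta chains, which have 5629 bases for Lamb2 and 5784 for Lamb1. The excess is small for Lama4 (6046 bases) and large for Lama5 (11388 bases). Lower levels and losses of long molecules cannot be told apart from these counts.

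Among the linkers and the collagens with proteoglycan character, Col18a1, the source of endostatin, had 15 and 33 reads (37.8 and 46.3 CPM). Nid2 had 9 and 12 reads and Nid1 2 and 4. Hspg2, which encodes perlecan and has the longest annotated transcript of the tested genes at 14187 bases, had 10 reads in replicate 1 and 3 in replicate 2. Col15a1 had 1 and 0.

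Of the fibrillar collagens, 8 genes had reads, 158 in replicate 1 and 317 in replicate 2. The most read was Col5a3, a minor chain of type V collagen, rather than the major chains of types I and III. Col5a3 (ENSMUSG00000004098.7, minus strand of chromosome 9, 20770050 to 20815067) had 92 reads (232 CPM) and 167 reads (235 CPM), a mean of 233 ± 2.05 CPM (SD, n = 2). Col3a1, the single chain of type III collagen, had 34 (85.6 CPM) and 63 (88.5 CPM). Per read of Col3a1 there were 2.71 reads of Col5a3 in replicate 1 (1.83 to 4.00) and 2.65 in replicate 2 (1.99 to 3.54). Both intervals lay above 1, and the annotated transcript of Col5a3 (6119 bases) is longer than that of Col3a1 (5564 bases).

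The type I chains were lower. Col1a1 had 14 reads (35.2 CPM) in replicate 1 and 48 (67.4 CPM) in replicate 2, and Col1a2 had 7 (17.6 CPM) and 15 (21.1 CPM). Type I collagen holds more alpha 1 than alpha 2 chains, and Col1a1 reads stood at 2.00 (0.831 to 4.82) and 3.20 (1.81 to 5.67) per Col1a2 read. Col5a1, the main chain of type V collagen, had 7 and 22 reads, so Col5a3 exceeded it 13.1 times (6.20 to 27.8) and 7.59 times (4.88 to 11.8). Here the annotated transcript of Col5a3 (6119 bases) is the shorter, against 8406 bases for Col5a1. The part of length in these ratios was not tested. Col5a2, Col11a2 and Col27a1 had 0 to 2 reads per library.

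Reads of basement membrane genes outnumbered those of fibrillar genes in both libraries. There were 1.49 basement membrane reads per fibrillar read in replicate 1 and 1.30 in replicate 2, a mean of 1.40 ± 0.135 (SD, n = 2). As a share of the 2 groups' reads, basement membrane genes held 59.9% (55.0 to 64.6) and 56.6% (53.0 to 60.1), and both intervals lay above 50%. Per kilobase of annotated transcript the mean ratio was 1.33. The balance rested on 1 gene in each group. Without Col4a1 the ratio was 0.987 and 0.905, and without Col5a3 it was 3.58 and 2.75, both left out after the values were seen. In bulk tissue, the number of cells of each type and the RNA per cell cannot be told apart.

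**Figure D2:**
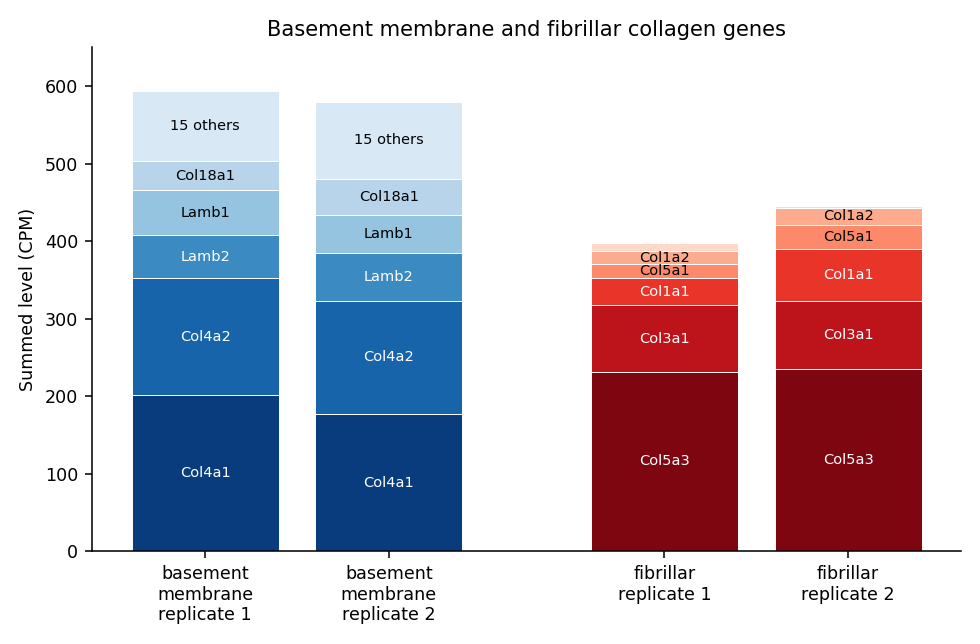
Summed level in CPM of the basement membrane genes (blue) and the fibrillar collagen genes (red) in each library, stacked by gene with the 5 most read named and the rest on top. Col4a1 with Col4a2 and Col5a3 alone make up the larger part of their bars, and the blue bars are the taller in both libraries.

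Type VI collagen, a beaded filament next to basement membranes, came almost wholly from 1 chain. Col6a1 (ENSMUSG00000001119.7, minus strand of chromosome 10, 76708792 to 76726168) was the second most read of the genes, with 126 reads (317 CPM) in replicate 1 and 230 (323 CPM) in replicate 2. Col6a2, which neighbours it, had 6 and 15. That made 21 reads of Col6a1 per read of Col6a2 (9.46 to 46.6) and 15.3 (9.15 to 25.7), and the tables used here list no model of Col6a3, the chain that completes the molecule. The annotated transcripts of Col6a1 (4100 bases) and Col6a2 (longest 4653 bases) are of similar length. Col13a1, a collagen of the cell membrane, had 4 and 9 reads, and the other 12 collagens of this group had 0 to 5 per library.

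Of the matrix genes outside these families, Timp3, an inhibitor of metalloproteinases that stays bound to the matrix, had 47 reads (118 CPM) in replicate 1 and 83 (117 CPM) in replicate 2. Bgn, the small proteoglycan biglycan, had 42 (106 CPM) and 64 (89.9 CPM). Dcn, its relative decorin, had 15 (37.8 CPM) and 43 (60.4 CPM), and Lum, lumican, had 1 and 5 reads. Timp2, an inhibitor that also helps Mmp14 to activate another protease, had 13 (32.7 CPM) and 37 (52.0 CPM). Mgp, which holds back calcification, had 10 (25.2 CPM) and 33 (46.3 CPM). Sparcl1, a relative of Sparc, had 5 and 14 reads. Fn1, fibronectin, had 1 and 0 reads, against an annotated transcript of 8315 bases. Counted per kilobase of annotated transcript, the order of levels was Sparc, Col6a1, Mgp, Bgn, Col5a3, Col4a1, Dcn and Timp3, so Mgp, with a transcript of 617 bases, stood at rank 3 in place of rank 15 among these genes.

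Levels were also compared between the 2 libraries. An exact binomial test (two-sided, Benjamini-Hochberg adjusted) was run on all 9271 genes with a summed count of at least 10, of which 2.15% passed (1.35% higher in replicate 1 and 0.798% lower). Of the 25 matrix genes tested, 1 passed. The other 28 were under the minimum. Not passing at these counts does not show equal levels: Lamc1 differed 2.63 times and Col1a1 1.87 times between the libraries without passing. On the log2 scale the median of the 25 was -0.21 for replicate 1 over replicate 2, against -0.03 for all genes tested, with 8 higher and 17 lower in replicate 1, whether or not they passed. Counted in the same way, 4443 of all genes tested were higher and 4828 lower in replicate 1. Of those that passed, 125 were higher and 74 lower in replicate 1, and 148 and 55 with TMM scaling or DESeq2 size factors.

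The gene that passed was Mmp14 (chromosome 14, 54431612 to 54445364), a protease anchored in the cell membrane that cuts fibrillar collagen. It had 3 reads in replicate 1 (7.55 CPM) and 42 (58.99 CPM) in replicate 2, and the log2 ratio was -2.76 (95% interval -5.30 to -1.32) with an adjusted p of 0.00132 by the exact binomial test. Its inhibitors Timp2 and Timp3 had adjusted p of 0.686 and 1 in the same exact test. Hspg2 went the other way, with 10 reads in replicate 1 against 3 in the other, a log2 ratio of 2.43 (0.62 to 5.08) and an exact p of 0.00306, which became 0.0992 after adjustment. Of its 13 reads, 8 were unspliced and overlapped the last exon. Col1a1 had an unadjusted exact p of 0.0334 and an adjusted p of 0.369. Marker genes differed between the libraries as well. All 5 liver markers tested passed, higher in replicate 1. Of the 5 adipocyte markers tested, 1 passed, Ucp1 with 526 and 279 CPM (adjusted p 7.43e-08 by the exact binomial test). Among steroidogenic markers 2 passed as higher and 1 as lower in replicate 1, and among chromaffin markers 1 and 2. The part of these markers in the Mmp14 difference was not tested.

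Genes that act on the matrix proteins were read in both libraries. Of 29 genes that fold, modify and cross-link collagen, 27 had reads, 18 were tested and 0 passed, 3714 and 3366 CPM in all. The highest were Pcolce, which aids the removal of the collagen C-propeptide, with 544 and 909 reads, the prolyl hydroxylase subunit P4hb with 254 and 420, and the collagen chaperone Serpinh1 with 229 and 356. Of 26 matrix receptors, 21 had reads and 14 were tested, and 1 passed. This was the proteoglycan receptor Sdc3 with 208 reads (524 CPM) in replicate 1 and 269 (378 CPM) in replicate 2, a log2 ratio of 0.47 with an adjusted p of 0.0286 by the exact binomial test. The integrin subunits Itgb1 (82 and 156 reads) and Itgb5 (80 and 152) followed. Of 25 further proteases and inhibitors, 19 had reads, 9 were tested and 0 passed, and the highest, Timp1, had 7 and 21 reads.

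The matrix transcripts were often read incompletely. Reads assigned to an annotated transcript made up 66.6% (64.5 to 68.6) of matrix gene reads in replicate 1 and 64.02% (62.4 to 65.6) in replicate 2, against 77.1% and 77.0% for all annotated genes. Without Sparc the shares were 34.7% (31.2 to 38.3) and 39.3% (36.7 to 42.0). A read can miss the annotation without being short. All 356 reads of Col6a1 count as unannotated here, although 221 of its 323 reads with the last intron also held the first. These shares therefore mix incomplete reads with reads that differ from the annotation. Basement membrane genes had 33.5% (27.8 to 39.7) and 41.6% (37.0 to 46.5), and fibrillar genes 34.2% (27.2 to 41.9) and 33.8% (28.8 to 39.1), so the intervals of both groups overlapped in each library. Most of the remaining reads were incomplete splice matches that keep the 3′ end. Col5a3 had 16 annotated-transcript reads in replicate 1 and 32 in replicate 2, while 167 of its 259 reads were such 3′ fragments.

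Reads of the short transcripts of Dcn, Mgp, Bgn and Sparc, which are neither collagens nor laminins, were mostly assigned to an annotated transcript. The annotated-transcript share over both libraries was 96.6% of 58 reads for Dcn (88.3 to 99.0), 88.4% of 43 for Mgp (75.5 to 94.9), 84.9% of 106 for Bgn (76.9 to 90.5) and 80.1% of 3588 for Sparc (78.8 to 81.4). Col3a1 reached 78.4% of 97 reads (69.2 to 85.4) with a transcript of 5564 bases and 51 exons. Col4a1 had 50.5% of 206 (43.7 to 57.2), Col4a2 32.3% of 164 (25.6 to 39.8), Lamb1 32.8% of 58 (22.1 to 45.6) and Lamb2 28.8% of 66 (19.3 to 40.6). Short collagen transcripts went the other way. Col6a2, with a most read annotated transcript of 3949 bases, had 28.6% of 21 reads, and Col13a1 (3162 bases) had 0% of 13. Col1a2, Hspg2 and Col6a1 also had none. When these shares were set against each other by Fisher's exact test (two-sided), 0.229% of 3926 genes passed and 0 of the 10 matrix genes with 20 reads in each library did. The lowest p of the 10 was that of Sparc, with 82.7% in replicate 1 and 78.6% in replicate 2 (exact p 0.00285, adjusted 0.324), and Sparc was the only one under an unadjusted 0.05. The leading annotated transcript's share could be tested in Sparc and Timp3, and neither passed, nor had an unadjusted p under 0.05, where 0.161% of 1866 genes passed.

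How far the reads went was measured from the 3′ end. Reads with the last annotated intron of a gene were called 3′-anchored, and those that also held the first annotated intron were counted. Among 24 matrix genes with at least 10 such reads, the share with the first intron had a median of 72.7% and fell with transcript length across genes (Spearman rho -0.71, Pearson r -0.62, a description over genes that share both libraries). In transcripts under 2 kb the median was 91.8% for the matrix genes (n = 2) and 94.1% for other genes (n = 2668). From 2 to 4 kb it was 91.1% (n = 7) and 90.7% (n = 3539), from 4 to 6 kb 63.8% (n = 9) and 85.0% (n = 1218), and from 6 kb 49.3% (n = 6) and 83.3% (n = 340). Long matrix transcripts thus lay below other long transcripts in this measure, a difference that carries no test. The last intron lay 247 bases from the 3′ end in Lamb2 and 3802 in Timp3, so anchored reads had unlike distances left to cover. The part of this in the difference was not tested.

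**Figure D3:**
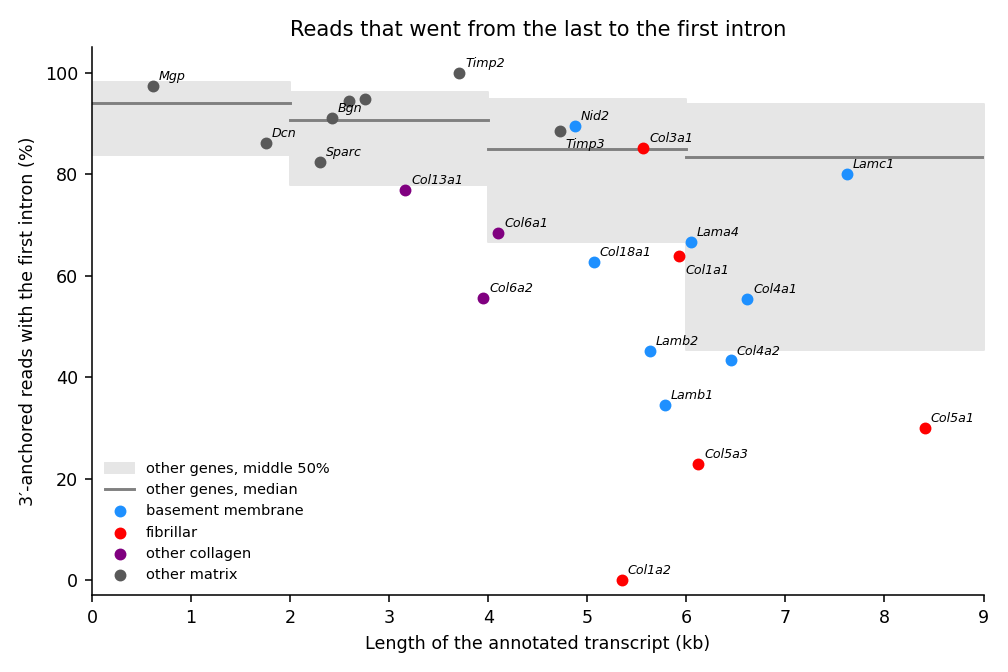
Share of 3′-anchored reads that also held the first intron (percent) against the length of the annotated transcript (kb) for 24 matrix genes, coloured by group, with the median and the middle 50% of other genes per length class as line and band (the last class is drawn to 9 kb). Matrix genes under 4 kb other than Col6a2 and Col13a1 lie between 82.4% and 100%, while Col1a2, Col5a3, Col5a1, Lamb1, Col4a2 and Lamb2 lie below 50%.

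Genes of like length differed. Col3a1 kept the first intron in 80 of 94 reads (85.1%, 76.5 to 90.9) and Nid2 in 17 of 19 (89.5%, 68.6 to 97.1). Col1a1 did so in 37 of 58 (63.8%, 50.9 to 74.9) and Col4a1 in 108 of 195 (55.4%, 48.4 to 62.2). Col4a2 kept it in 58 of 134 (43.3%, 35.2 to 51.7), Lamb2 in 28 of 62 (45.2%, 33.4 to 57.5), Lamb1 in 19 of 55 (34.5%, 23.4 to 47.7) and Col5a3 in 56 of 244 (23.0%, 18.1 to 28.6). The interval of Col3a1 lay above those of Col4a1, Col4a2, both laminin beta chains and Col5a3. Col1a2 had 0 of 16, which allows up to 19.4% by the Wilson interval. In each library on its own Col3a1 stood at 81.8% and 86.9%, and Col5a3 at 23.3% and 22.8%.

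Read reach was also measured at fixed distances from the 3′ end, where the order of the genes was not that by first intron. At 2 kb, a median of 94.1% of the anchored reads of 18 matrix genes still went on, against 97.0% for 2788 other genes. At 3 kb it was 80.0% of 15 genes against 93.2% of 1681, at 4 kb 74.0% of 14 against 90.9% of 846, and at 5 kb 60.3% of 10 against 88.9% of 360. An anchored read by definition reaches the last intron, which lay at 929 bases in Col5a3, 2808 in Lamc1 and 3802 in Timp3. These medians therefore mix the length of the last exon with how far reads went, and the part of each was not tested. Col5a3 fell early, with 89.8% of its reads reaching 2 kb, 60.7% reaching 3 kb, 42.6% reaching 4 kb and 29.9% reaching 5 kb. Col4a1 declined more slowly over these distances, 95.4%, 85.6%, 73.8% and 65.6%, and Col3a1 least of these genes, 96.8%, 93.6%, 87.2% and 85.1%. Lamb1 had a step: 65.5% of its reads held the intron at 3403 bases from the 3′ end and 43.6% the next at 3527 bases, and the step was there in both libraries (15 against 8 of 23 reads in replicate 1, 21 against 16 of 32 in replicate 2).

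**Figure D4:**
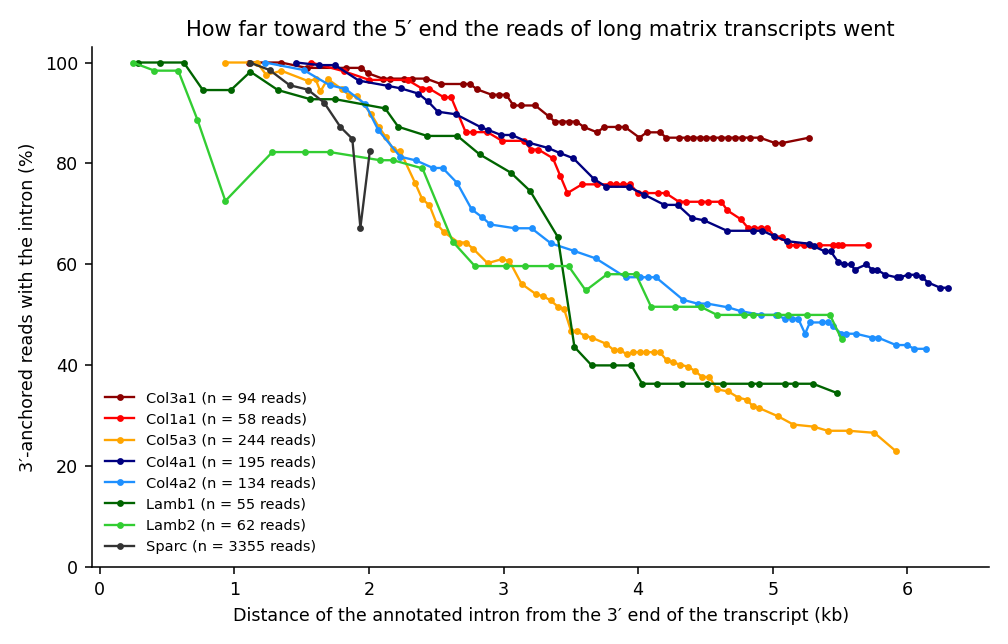
Share of 3′-anchored reads (percent, both libraries summed) that held each annotated intron, against the intron's distance from the 3′ end of the transcript (kb), for 8 matrix genes. Col3a1 levels off near 85%, Col5a3 falls to 23.0%, Lamb1 steps down near 3.5 kb, Lamb2 dips near 1 kb, where introns were kept, and the dip of Sparc is the junction with 2 acceptors.

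The mean length of the models was a further measure. Over the 25 genes with at least 10 reads, the read-weighted mean length of the models was a median of 73.3% of the longest annotated protein-coding transcript, with a range from 13.9% (Hspg2) to 98.2% (Dcn). It was 75.8% in replicate 1 and 71.1% in replicate 2, and its Spearman rho with transcript length was -0.74 (n = 25). Among genes with annotated transcripts of 4 to 6 kb the median was 73.3% for 9 matrix genes, against 80.9% for 1465 other genes. From 6 kb on the order turned, 62.3% for 7 matrix genes against 56.8% for 567 other genes. The median share of reads on annotated transcripts was 37.5% for matrix genes against 59.3% for other genes from 4 to 6 kb, and 32.3% against 32.1% from 6 kb on. Timp3, which lies within Syn3 on the other strand, stood apart among the genes of few exons. Of its 130 reads 67 were unspliced, 66 of them overlapping the last exon, while 54 of its 61 anchored reads held the first intron.

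Col6a1 was a different case, because its reads were long but matched no annotated transcript. In replicate 1, 0 of 126 reads and in replicate 2, 0 of 230 were assigned to one, although 221 of 323 anchored reads (68.4%, 63.2 to 73.2) reached the first intron. The model with the most reads was the same in both libraries, exon for exon, with 68 and 130 reads. It has 32 exons and 4090 bases, where the annotated transcript has 35 exons and 4100 bases. Exons 6 and 7, of 21 bases each, were in 0 of 233 spanning reads, and exon 29, of 9 bases, in 0 of 313. In the same models exon 8 was longer by 37 bases and exon 28 by 4, and their annotated forms were in 5 of 235 and 5 of 310 spanning reads.

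The exons that the models leave out are printed in capitals between the last bases of the exon before and the first bases of the exon after (15 on each side, spliced, minus strand of mm10, from the GENCODE M21 transcript, at chr10:76720991-76721417 and chr10:76712387-76713199).
Col6a1 exons 5 to 8: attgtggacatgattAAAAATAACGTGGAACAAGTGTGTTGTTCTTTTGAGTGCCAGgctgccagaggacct
Col6a1 exons 28 to 30: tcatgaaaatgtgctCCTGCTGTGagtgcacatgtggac
Other short exons of the same gene were found: exons 11 and 12, of 27 bases each, were in 93.4% and 94.3% of 244 spanning reads. The deposited models do not show the bases of the reads, so whether these stretches are absent from the molecules was not tested.

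**Figure D5:**
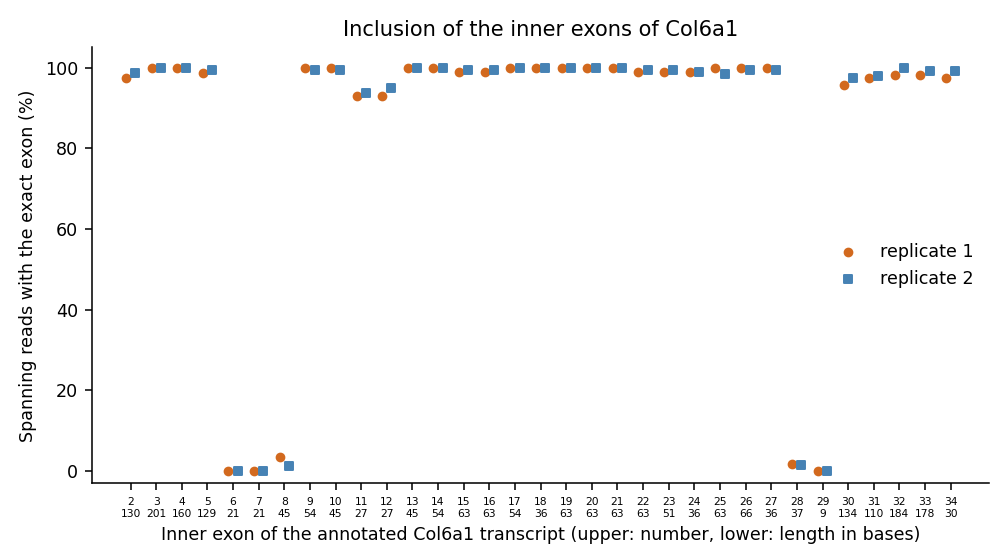
Share of spanning reads that held the exact annotated exon (percent) for each inner exon of Col6a1, with its number and length in bases under the axis, replicate 1 as circles and replicate 2 as squares. Exons 6, 7 and 29 are at 0 in both libraries, exons 8 and 28, whose ends moved, are under 5%, and all others are above 90%.

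Short exons were the ones most often missed in all genes. Among exons under 30 bases with at least 10 spanning reads, 5 of 27 in the matrix genes (18.5%) and 56 of 314 in other genes (17.8%) were in under 50% of the reads. From 30 to 59 bases it was 2 of 209 (0.957%) and 63 of 4492 (1.40%), and from 60 bases 3 of 413 (0.726%) and 390 of 57106 (0.683%). By this count of exons, the matrix genes stood close to the background in each class. By reads they stood lower for exons under 30 bases, but only through exons of Col6a1. Summed over these exons, 985 of 1833 spanning reads held the exon in matrix genes, against 22459 of 27628 in other genes. Exons 6, 7 and 29 of Col6a1 gave 233, 233 and 313 of the 1833 spanning reads and 0 of the 985. Apart from these and exons 3 and 6 of Col13a1, each short matrix exon was in at least 75% of its spanning reads. All 10 exons under 50% belonged to Col6a1 (5), Col13a1 (4) and Col5a1 (1). In Col13a1 they were exon 3 of 8 bases (0 of 10 reads), exon 6 of 27 bases (2 of 10), exon 15 of 66 bases (0 of 10) and exon 31 of 99 bases (2 of 13), whereas its 10 other exons of 24 or 27 bases were in 90% to 100% of spanning reads.

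In Col5a1 the exon under 50% was replaced by another. Annotated exon 64, of 69 bases (chr2:28028967-28029035), was in 2 of 5 spanning reads in replicate 1 and 4 of 13 in replicate 2. An exon of the same length that no annotated transcript holds, at chr2:28029097-28029165, was in 3 and 9 reads. Of the spanning reads of both libraries, 0 held both exons and 0 held neither.

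Few introns of these genes stayed in spliced reads. Of 643 annotated introns in 24 matrix genes crossed by at least 10 reads of spliced models, 605 were kept in no read. In at least 10% of the reads, 2 were kept. Introns of other genes were not counted in this way, so whether these numbers are usual was not tested. Both of these 2 introns belonged to Lamb2. Its intron 28, of 292 bases, was kept in 4 of 20 reads in replicate 1 (20%) and 10 of 40 in replicate 2 (25%), and intron 29, of 78 bases, in 2 of 21 (9.52%) and 6 of 44 (13.6%). Among first exons, Dcn used the upstream of its 2 annotated first exons in 13 of 14 reads in replicate 1 (92.9%, 68.5 to 98.7) and 37 of 42 in replicate 2 (88.1%, 75.0 to 94.8). Col18a1, whose promoters give proteins with different N-terminal parts, used the distal first exon in 9 of 9 and 18 of 18 reads that reached a first exon, with none from either proximal one.

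Some spliced models outside the annotation were found in both libraries. The matrix genes had 162 different unannotated intron chains, and 18 of them, in 8 genes, were shared in this way. The same count was not made over all genes, so it is not known whether this share is usual at this depth. Apart from the Col6a1 model above, the most read of these were a Sparc chain with 3 and 7 reads and a Col5a3 chain with 4 and 3.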

How the data were processed

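Long-read RNA sequencing of adrenal gland total RNA gave 2 libraries of 1 group. The deposited tables give counts, whole reads per transcript model in each library, per the file headers, and the annotation files hold each model's exon positions in mm10. The authors assigned the reads to models over GENCODE M21, per the file headers, which carry TALON attributes. The aligner, program versions and the read filters are not given in the sources used here. For a model of the annotated class the deposited positions are those of the annotation, so the true ends of such reads are not shown. Raw reads, read bases and parental alleles were not analysed here.

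Model counts were summed per gene, without spike-in rows (8817 and 14315 reads on ERCC controls). CPM was computed from reads on annotated mouse genes. An exact binomial test (two-sided) against the library totals was used for genes with a summed count of at least 10, with 0.5 reads added in log2 ratios, and Fisher's exact test (two-sided) for shares in genes with at least 20 reads in each library, all with Benjamini-Hochberg adjustment over all genes and a threshold of 0.05 (SciPy 1.17.1, Python 3.11.15). Both steps were tested on simulated data. TMM (edgeR 4.0.16) and DESeq2 1.42.0 size factors, run in R 4.3.3, were used as other scalings. Intervals are 95% Wilson intervals for shares and 95% counting intervals for ratios.

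Reach and exon inclusion were measured on each gene's most read annotated protein-coding transcript, or the longest where none had reads. A read reached a distance when its model held an annotated intron at least that far from the 3′ end, in genes with an intron within 250 bases beyond it. A spanning read is a spliced model that covers parts of both neighbouring exons. Sequences came from the GENCODE M21 transcripts and, for the start sites, from RefSeq (GRCm38.p6), whose promoter table held 37 of the 53 genes.

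The genes, the lists and the tests were chosen with earlier results of these data known. The text gives values for basement membrane and fibrillar genes with at least 10 reads, the 12 highest genes, the 8 longest and those past a threshold. Of related genes it gives the 3 highest of the processing and receptor lists and the highest of the protease list. Marker lists are given as sums and as counts of genes that passed, with values for Ucp1 only. Splice choices, kept introns and values for genes with few reads were chosen after the data were seen.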

Additional observations from a re-analysis of the deposited data

Results flagged for a closer look

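Antisense models, which no comparison used, covered exons of Col1a1 in both libraries, with 4 reads in replicate 1 (10.1 CPM) and 4 in replicate 2 (5.62 CPM). Both counts lie above the 3 reads that a count of 0 allows, which is what called for a closer look. On its own strand Col1a1 had 14 and 48 reads.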

How the results depend on the processing

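Mmp14 passed the test under all 6 other settings tried (TMM scaling, DESeq2 size factors, no filter on low counts, at least 30 reads, annotated transcripts only and models of 2 or more exons), with log2 ratios from -3.68 to -2.71, and it was the only matrix gene that passed in each. The count of all genes that differ stayed between 152 and 203 under them, against 199. Counting at least 5 reads in each library left 20 matrix genes and annotated transcripts alone left 28, against 53. The median level of the 25 tested genes was 42.3 CPM, 22.4 with annotated transcripts alone and 10.3 per kilobase. The share of matrix reads was 0.505%, 0.428% with annotated transcripts alone and 0.524% with spliced models alone. The ratio of basement membrane to fibrillar reads was 1.40, 1.54 with annotated transcripts alone, 2.14 without the most read gene of each group and, in choices added after the values were seen, 3.16 without Col5a3 and 0.946 without Col4a1. The annotated-transcript share was 65.3%, 37.0% without Sparc and 70.9% with spliced models. With spliced models, 2 genes differed in that share, against 9, with 0 matrix genes in either. The median model length was 73.3%, 76.6% against the most read transcript and 76.9% with at least 30 reads. The cause of these shifts was not tested.

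With either replicate left out, the number of genes with reads ranged from 43 to 47, the median level from 35.2 to 52.0 CPM, the matrix share from 0.502% to 0.508%, the ratio from 1.30 to 1.49, the annotated-transcript share from 64.02% to 66.6% and the median model length from 71.1% to 75.8%. No paired analysis was possible because the labels give 1 group.

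Depth limits most of these genes: 28 of 53 had under 10 reads over both libraries. With 1 group of 2 libraries the spread between animals is poorly known.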

Other observations

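Antisense models over other matrix genes were rare. Col5a3 had 5 such reads in replicate 1 and 0 in replicate 2, Sparc 1 and 4, Hspg2 1 and 3, and, Col1a1 apart, each other matrix gene with any had at most 3 reads per library.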
